A study of Mus musculus with 7 samples.

Results

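The genes described here, 9 in all, encode secreted granule proteins of the mouse Paneth cell other than the defensins: the protease Mmp7, the protease inhibitor Spink4, the protease Habp2, the lectin Itln1, the pentraxins Mptx1 and Mptx2, the ribonuclease Ang4, the lipase Pnliprp2 and the lipase cofactor Clps. They were taken by name, 9 of the 52550 genes in the count tables, and all 9 passed the filter on low counts. The libraries held polyadenylated RNA of Paneth cells sorted from small-intestinal crypts of Lgr5-EGFP-IRES-CreERT2 mice, a C57BL/6J line in which stem cells carry a green reporter and an inducible recombinase. The first 4 libraries, DSS 1 to DSS 4, came from mice given 3% dextran sulfate sodium (DSS), a polymer that injures the gut lining, in the drinking water for 7 days and killed 3 days after it was withdrawn. The other 3 libraries, water 1 to water 3, came from mice of the same genotype kept on plain water. The DSS mice were 12, 10, 10 and 10 weeks old and the water mice 12, 12 and 10 weeks old. The question was how Paneth cells change after gut inflammation.

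Paneth cells sit at the crypt base and release granules that hold lysozyme and alpha-defensins, peptides that kill bacteria. The same granules carry enzymes, lectins and inhibitors that process those peptides or act on microbes and lipids. In the mouse, Mmp7 (matrilysin) cuts alpha-defensin precursors into their active form.

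Total counts ran from 23175708 to 32451653 per library. Counts of every pair of libraries differed beyond sampling noise, the smallest chi-square per degree of freedom being 14.5. Separate animals are not stated for the libraries, so a p-value here covers only the variation among these samples, which may be technical. RNA was isolated on November days 9, 16, 16 and 24 for DSS 1 to DSS 4 and on days 14, 14 and 21 for the water libraries. No day held both groups, so day and treatment cannot be told apart. The titles of DSS 2, DSS 3 and water 3 share a number, whose meaning is not explained, so these samples may not be independent. DSS 2, whose label calls it merged, held the highest DSS value for 7 of the 9 genes, so the log2 changes are given with and without it. By Dixon's rule, the gap of an extreme sample to its neighbour divided by the range of the 4 DSS samples, none of 30 value series held an outlier. The largest such ratio for DSS 2 among the 9 genes was 0.660, for Mptx1, where DSS 2 was 2.88 times the mean of the other DSS libraries. With 4 values only a very wide gap is flagged, so the rule does not show that DSS 2 is like the others. Lyz1, the lysozyme that defines Paneth cells, ranged from 39039 to 77961 CPM in the DSS libraries and from 99882.5 to 108235 CPM in the water libraries. CPM values, counts relative to library size, are scaled by TMM, edgeR's trimmed-mean method, throughout.

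None of the 9 genes passed the test between DSS and water. With edgeR's quasi-likelihood test adjusted by Benjamini-Hochberg over 17449 genes, 0 of 9 had an adjusted p under 0.05, and the background was 0% of all genes in each direction. At an unadjusted p under 0.05 the count was 1 of 9, Itln1, beside 15.7% of all genes in either direction and 7.35% lower in DSS. The estimated log2 change was below 0 for 6 of the 9 and above 0 for 3, while 50.3% of all genes were below 0. All 4 DSS libraries lay below all 3 water libraries for 2 genes, Itln1 and Clps, a pattern seen in 7.51% of all genes. No member had all DSS libraries above all water libraries, which 7.40% of all genes had. The median log2 change of the 9 was -0.26, against -0.0015 for all genes tested. In bulk RNA of sorted cells, fewer cells of a type and less RNA per cell cannot be told apart.

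The DSS libraries were not alike. DSS 3 and DSS 4 lay below all 3 water libraries for all 9 genes. DSS 1 lay within the water range for 3 of the 9. DSS 2 was the highest of the 4 DSS libraries for 7 of the 9 and the highest of all 7 libraries for 5. The shares of all genes with these library patterns were not counted, so the patterns are not shown to be particular to the 9. Without DSS 2, all 9 estimates were below 0, the median log2 change was -0.33, and 49.6% of all genes were below 0. In that fit the unadjusted p was under 0.05 for 4 of the 9 genes (Itln1, Clps, Mptx2 and Spink4), beside 14.5% of all genes, and no adjusted p was under 0.05. DSS 2 was singled out partly for its high values of these genes, so leaving it out lowers their estimates. The counts without it are therefore no separate test of the 9. The alignment names in the file headers carry a number here taken as the sequencing lane: 6 for DSS 4 and all water libraries, 8 for DSS 1 and DSS 3, and none for DSS 2. Within lane 6, where the lone DSS library is assumed to vary like the water ones, the 9 estimates ran from -1.20 for Mptx2 to -0.29 for Spink4. That all 9 were below 0 follows from DSS 4 lying below all 3 water libraries, and adds nothing to it. Lane 8 held no water library. Among the 10-week mice, 3 DSS and 1 water, 6 estimates were below 0 and those of Ang4, Mptx1 and Pnliprp2 were 0.14, 0.16 and 0.16.

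**Figure D1:**
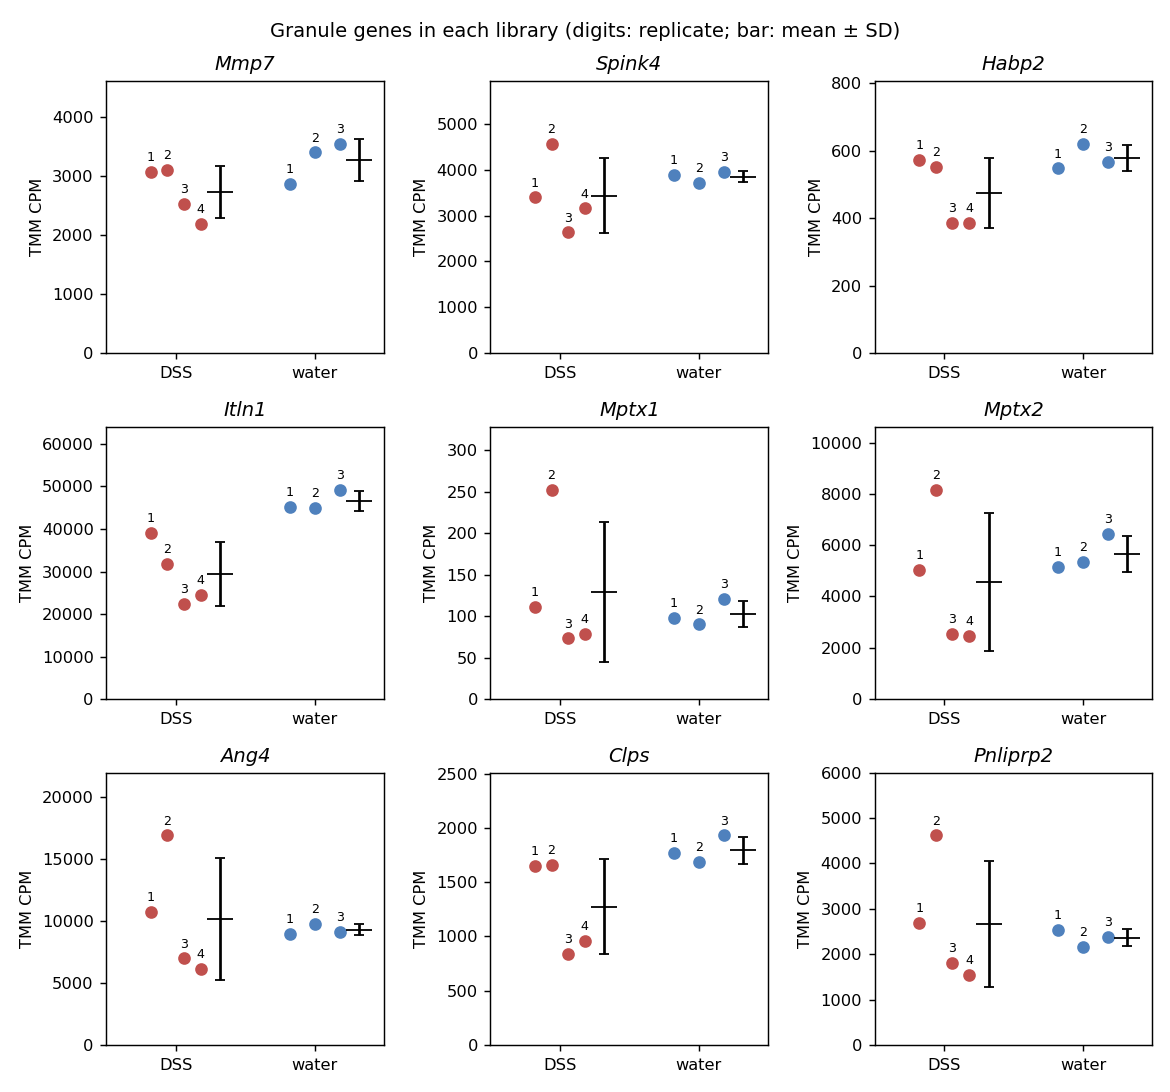
TMM-scaled CPM of the 9 genes in each library (digit, replicate), DSS at the left and water at the right of each panel, with the mean and SD of each group as a bar. The 3 water points spread less than the DSS points in every panel, though only a little less for Mmp7 (SD 358 CPM in water and 441 CPM in DSS). DSS 2 is at the top for Ang4, Mptx1, Mptx2, Pnliprp2 and Spink4.

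Among the proteases and their inhibitor, the differences were small. Mmp7 (ENSMUSG00000018623.9, chr9:7692090-7699585 on the plus strand of mm10) had 3071, 3105, 2524 and 2196 CPM in DSS 1 to DSS 4 and 2867, 3401 and 3546 CPM in water 1 to water 3. DSS 1 and DSS 2 lay inside the water range and DSS 3 and DSS 4 below it. Mmp7 averaged 2724 ± 441 CPM in DSS and 3271 ± 358 CPM in water (SD, n = 4 and 3). The log2 change was -0.26 ± 0.15 (SE), and edgeR gave an adjusted p of 0.433. Without DSS 2 the change was -0.33. Its exons share 123 bases with AV064505 on the other strand. Counting took no account of strand, so reads there cannot be told apart, and AV064505 itself held 276 counts over all 7 libraries.

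Spink4 (ENSMUSG00000028415.4, chr4:40920052-40931395, plus strand) encodes a small Kazal-type inhibitor, a class that blocks trypsin-like proteases. It had 3394, 4560, 2632 and 3155 CPM in DSS 1 to DSS 4 and 3881, 3714 and 3942 CPM in water 1 to water 3. One DSS library lay above the narrow water range and the other 3 below it. Spink4 averaged 3435 ± 814 CPM in DSS and 3846 ± 118 CPM in water. The log2 change was -0.16 ± 0.18 with an edgeR adjusted p of 0.706. Single libraries moved it to -0.33 without DSS 2 (adjusted p 0.316) and to -0.054 without DSS 3. When libraries were scaled by their totals alone, the median of all genes moved to 0.23 and Spink4 stood at 0.063, which is -0.17 relative to that median.

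Habp2 (ENSMUSG00000025075.14, chr19:56287137-56320822, plus strand) encodes a hyaluronan-binding serine protease that circulates in plasma and is best known as a product of the liver. It had 574, 552, 386 and 386 CPM in DSS 1 to DSS 4 and 548, 620 and 567 CPM in water 1 to water 3. DSS 1 and DSS 2 again lay within the water range and DSS 3 and DSS 4 below it. Means were 474 ± 103 CPM in DSS and 578 ± 37.6 CPM in water. Its log2 change was -0.29 ± 0.16 with an edgeR adjusted p of 0.417, and -0.37 without DSS 2. Habp2 shares 268 exonic bases with Nrap on the other strand, a gene with 264 counts over all libraries. Mmp7 and Habp2 followed each other closely: after each gene was centred on its own mean over the 7 libraries, their log2 values differed by a root mean square of 0.11, the second smallest distance among the pairs of the 9.

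Other genes of these classes were counted beside them. Of 24 matrix metalloproteinases and their inhibitors, 10 were tested, with 4 estimates above 0, 6 below 0 and 0 called in either direction (median -0.11). Mmp28 averaged 3.79 ± 0.605 CPM in DSS and 4.73 ± 0.507 CPM in water, and the membrane-bound Mmp14 averaged 30.4 ± 1.87 CPM in DSS and 33.0 ± 1.87 CPM in water. Mmp10, Mmp13 and Mmp1a had 0 counts in every library. Of 14 Kazal-type inhibitors and trypsin-like targets, 6 were tested, 4 above 0 and 2 below, and 0 were called (median 0.043). Of these, Spint1 averaged 86.5 ± 6.77 CPM in DSS and 77.3 ± 4.73 CPM in water, and St14, a membrane-bound serine protease, 144 ± 3.23 CPM in DSS and 133 ± 8.19 CPM in water. Tmprss2, another such protease, averaged 630 ± 115 CPM in DSS and 717 ± 101 CPM in water. Of 18 circulating and cell-surface serine proteases and their inhibitors, 10 were tested, 5 above 0 and 5 below, and 0 were called (median 0.052). Hgfac, the protease that activates hepatocyte growth factor, averaged 124 ± 26.6 CPM in DSS and 138 ± 7.78 CPM in water.

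Itln1 (ENSMUSG00000038209.12, chr1:171518122-171535294, minus strand) encodes intelectin-1, a lectin that binds sugars of microbial surfaces. It was the most abundant of the 9 and the only one with an unadjusted p under 0.05. It had 39063, 31700, 22358 and 24462 CPM in DSS 1 to DSS 4 and 45281, 44962 and 49239 CPM in water 1 to water 3. Every DSS library was below every water library, with DSS 1 nearest to water. Itln1 averaged 29396 ± 7586 CPM in DSS and 46494 ± 2383 CPM in water (SD, n = 4 and 3). On the log2 scale the change was -0.66 ± 0.22, and edgeR's adjusted p was 0.218 (0.0151 unadjusted). Without DSS 2 the change was -0.70. DESeq2 called it lower at an adjusted p of 0.00435, where 2.24% of 13223 genes were called lower. Across all edgeR and limma settings tried, its adjusted p ranged from 0.0551 to 0.490 and its log2 change from -0.93 to -0.45. The value of 0.0551 came from leaving out DSS 1.

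Mptx1 (ENSMUSG00000026531.4, chr1:174330518-174332873, plus strand) and Mptx2 (ENSMUSG00000079180.4, chr1:173274382-173277777, minus strand) encode mucosal pentraxins, relatives of C-reactive protein. Their longest transcripts were identical at 92.4% of aligned bases, with one identical stretch of 112 bases. Reads of such stretches match both genes, and the primary alignment was counted, so the split between them is uncertain. The promoters of the pair are shown because the genes, though on opposite strands and apart on chromosome 1, carry long shared stretches just before their start sites. They are the 250 bases before the RefSeq start on GRCm38.p6, read 5′ to 3′ on the gene's strand, at chr1:174330268-174330517 (plus) for Mptx1 and chr1:173277757-173278006 (minus) for Mptx2. The counted Mptx2 gene begins at position 173277777, inside its window, so the last bases of that window belong to the gene as counted. The Mptx1 window ends where the counted gene begins. Capitals mark runs of at least 12 bases shared by the aligned pair.
Mptx1: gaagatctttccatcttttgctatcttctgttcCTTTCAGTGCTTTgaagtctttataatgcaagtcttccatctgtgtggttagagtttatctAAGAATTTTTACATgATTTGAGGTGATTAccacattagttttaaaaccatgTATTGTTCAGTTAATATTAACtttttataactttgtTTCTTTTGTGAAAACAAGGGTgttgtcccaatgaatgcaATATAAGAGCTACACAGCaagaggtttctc
Mptx2: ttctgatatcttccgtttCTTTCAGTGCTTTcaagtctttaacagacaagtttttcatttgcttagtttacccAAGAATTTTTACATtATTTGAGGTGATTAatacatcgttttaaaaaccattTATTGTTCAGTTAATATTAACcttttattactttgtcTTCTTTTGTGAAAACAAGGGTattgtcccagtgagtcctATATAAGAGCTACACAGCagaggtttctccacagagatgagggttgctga
These windows were identical at 86.4% of 228 aligned bases, with 6 shared runs that hold 101 bases, the longest of 21. The word TATAAA, searched on both strands, was found in Mptx1 only in reverse complement, as TTTATA beginning 198 and 82 bases before the start, and was not in the Mptx2 window. It occurs in 13.0% of 27025 promoters of this length.

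Mptx2 had 5044, 8163, 2531 and 2475 CPM in DSS 1 to DSS 4 and 5145, 5358 and 6450 CPM in water 1 to water 3. DSS 2 was above all water libraries and the other 3 DSS libraries were below them. Mptx2 averaged 4553 ± 2688 CPM in DSS and 5651 ± 700 CPM in water. Its log2 change was -0.31 ± 0.39 with an edgeR adjusted p of 0.751, and -0.75 without DSS 2, where the adjusted p was 0.301. Mptx1 had 111, 252, 73.1 and 78.4 CPM in DSS 1 to DSS 4 and 98.2, 90.0 and 121 CPM in water 1 to water 3. DSS 2 held more than all others, DSS 1 lay within the water range, and DSS 3 and DSS 4 lay below it. Mptx1 averaged 129 ± 84.1 CPM in DSS and 103 ± 15.8 CPM in water. Its log2 change was 0.32 ± 0.40 with an edgeR adjusted p of 0.744, and -0.23 without DSS 2, so the sign rests on that library.

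Within each library, the Mptx1 level per kilobase of exon was a small percentage of the Mptx2 level. This ratio was 2.19%, 3.07%, 2.87% and 3.15% in DSS 1 to DSS 4 and 1.90%, 1.67% and 1.86% in water 1 to water 3. Every DSS library was above every water library. The ratio averaged 2.82% ± 0.435 in DSS and 1.81% ± 0.122 in water, 1.55-fold higher in DSS, or 0.63 on the log2 scale. The exact two-sided permutation test over 35 splits gave p = 0.0571, which did not pass 0.05. The smallest possible value, 0.0286, belongs to the opposite split of these ratios. With all DSS above all water, the split was already the most extreme in its direction. Doubling the smaller tail also gave 0.0571, the smallest value of that form. The test could therefore not pass 0.05 in this direction and decides nothing. The difference ranged from 0.57 to 0.75 on the log2 scale when single libraries were left out. Of 7 other pentraxin genes, 3 were tested, all at low levels, with 1 estimate above 0, 2 below and 0 called (median -0.54).

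**Figure D2:**
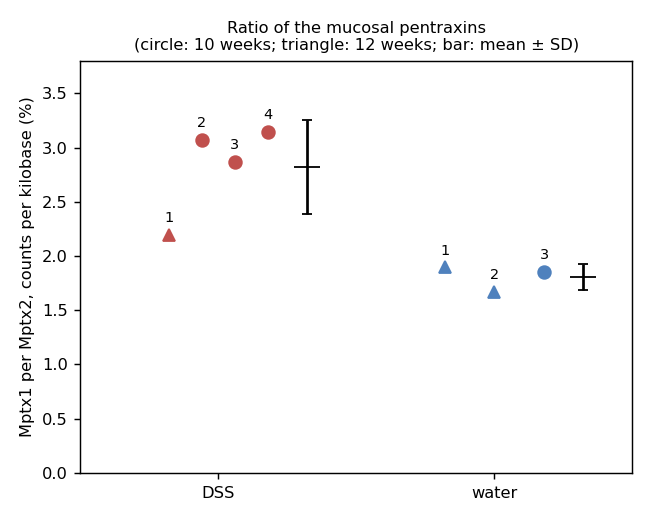
Level of Mptx1 per kilobase of exon as a percentage of that of Mptx2, one point per library, with DSS at the left, water at the right and the mean and SD of each group as a bar. Circles are mice of 10 weeks and triangles mice of 12 weeks, and the 4 DSS points lie between 2.19% and 3.15%, above the 3 water points between 1.67% and 1.90%.

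Ang4 (ENSMUSG00000060615.5, chr14:51763878-51773590, minus strand) encodes angiogenin-4, a ribonuclease that kills gut bacteria. It had 10713, 16898, 6985 and 6102 CPM in DSS 1 to DSS 4 and 8964, 9775 and 9107 CPM in water 1 to water 3. DSS 1 and DSS 2 were above the water range and DSS 3 and DSS 4 below it. Ang4 averaged 10174 ± 4908 CPM in DSS and 9282 ± 433 CPM in water (SD, n = 4 and 3). The log2 change was 0.13 ± 0.32 with an edgeR adjusted p of 0.887, and -0.23 without DSS 2. Its transcript was identical to that of Ang5 at 90.2% of aligned bases with a run of 79, so their reads may be split between them.

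Pnliprp2 (ENSMUSG00000025091.3, chr19:58759723-58777533, plus strand) encodes a lipase that cuts triglycerides, phospholipids and galactolipids. It had 2692, 4616, 1798 and 1537 CPM in DSS 1 to DSS 4 and 2543, 2166 and 2379 CPM in water 1 to water 3. The order of libraries relative to water was that of Ang4, with DSS 1 and DSS 2 above and DSS 3 and DSS 4 below. Pnliprp2 averaged 2661 ± 1394 CPM in DSS and 2363 ± 189 CPM in water. Its log2 change was 0.17 ± 0.34 with an edgeR adjusted p of 0.853, and -0.23 without DSS 2. Ang4 and Pnliprp2 were the closest pair of the 9, with a root-mean-square difference of 0.10 on the log2 scale. Their promoters are shown for that reason, over the 250 bases before the RefSeq start on GRCm38.p6 at chr14:51773591-51773840 (minus) and chr19:58759473-58759722 (plus), read on the gene's strand. Capitals mark the longest stretch in both.
Ang4: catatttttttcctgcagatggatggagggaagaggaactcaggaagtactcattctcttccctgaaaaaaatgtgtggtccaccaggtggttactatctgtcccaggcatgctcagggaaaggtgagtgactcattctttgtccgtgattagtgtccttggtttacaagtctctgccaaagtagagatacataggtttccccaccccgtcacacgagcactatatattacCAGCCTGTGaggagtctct
Pnliprp2: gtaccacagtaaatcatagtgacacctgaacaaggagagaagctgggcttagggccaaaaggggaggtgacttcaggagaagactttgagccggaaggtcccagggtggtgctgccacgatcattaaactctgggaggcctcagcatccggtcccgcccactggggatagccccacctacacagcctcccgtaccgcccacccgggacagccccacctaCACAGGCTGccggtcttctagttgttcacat
That stretch is 9 bases long, CAGCCTGTG beginning 19 bases before the Ang4 start, and reads in reverse complement, CACAGGCTG, from 31 bases before the Pnliprp2 start. It occurs on either strand in 0.7% of 27025 promoters, and it was picked after the sequences were compared. How often any pair of promoters shares some stretch of 9 bases was not counted, so the 0.7% does not show that the match is rare. The word TTCNNNGAA, bound by STAT factors, was found 192 bases before the Ang4 start and occurs in 7.2% of promoters, searched on both strands.

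Clps (ENSMUSG00000024225.4, chr17:28558210-28560766, minus strand) encodes colipase, the cofactor that anchors pancreatic lipase to fat droplets. It had 1648, 1659, 841 and 955 CPM in DSS 1 to DSS 4 and 1770, 1686 and 1932 CPM in water 1 to water 3. Every DSS library was below every water library, DSS 1 and DSS 2 by little. Clps averaged 1276 ± 439 CPM in DSS and 1796 ± 125 CPM in water (SD, n = 4 and 3). On the log2 scale the change was -0.49 ± 0.24, and edgeR gave an adjusted p of 0.360. Without DSS 2 the change was -0.65. Of the 9, its pattern was closest to that of Itln1, at 0.16.

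**Figure D3:**
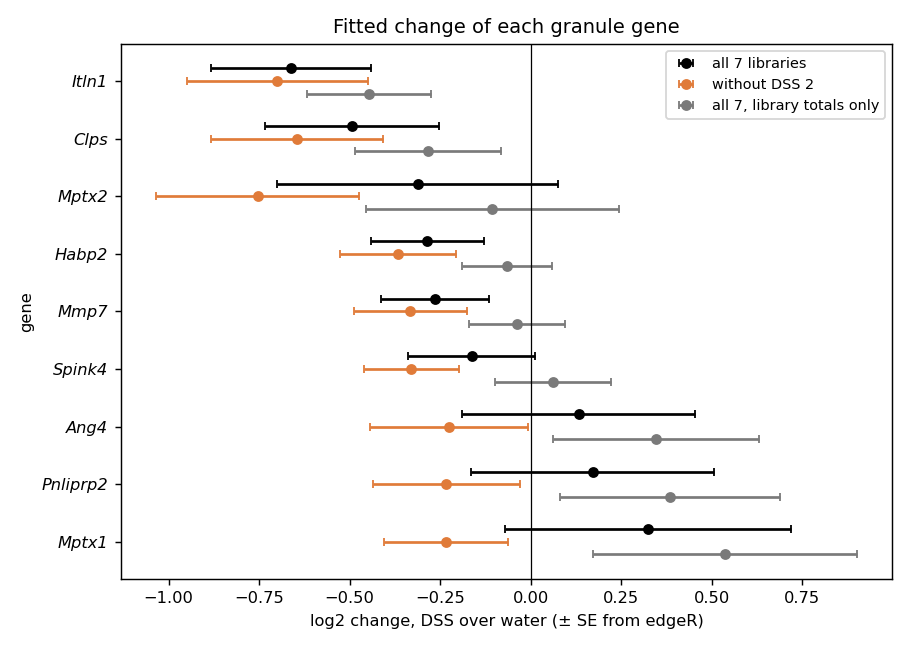
Log2 change in DSS relative to water for each of the 9 genes with its standard error, over all 7 libraries, without DSS 2, and with scaling by library totals only. With TMM and all libraries, 6 of 9 estimates lie below 0, and without DSS 2 all 9 do, where Ang4, Mptx1 and Pnliprp2 move from above 0 to -0.23.

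Relatives of these enzymes were measured as well. Of 10 angiogenin and ribonuclease genes listed, 9 were matched and 5 tested, with 4 estimates above 0, 1 below and 0 called (median 0.035). Ang5 had 199, 277, 113 and 103 CPM in DSS 1 to DSS 4 and 157, 142 and 151 CPM in water 1 to water 3. As for Ang4, DSS 1 and DSS 2 lay above the water range and DSS 3 and DSS 4 below it. Reads of Ang4 and Ang5 may be split between them, so the Ang5 pattern may not be separate from that of Ang4. The ribonuclease inhibitor Rnh1 averaged 89.7 ± 5.09 CPM in DSS and 85.0 ± 3.73 CPM in water. Of 13 lipases and cofactors, 6 were tested, 4 above 0 and 2 below, with 0 called (median 0.23). Pla2g2f, a secreted phospholipase, averaged 219 ± 58.3 CPM in DSS and 257 ± 21.6 CPM in water, and the lipase gene Lipg 9.79 ± 2.36 CPM in DSS and 7.16 ± 2.90 CPM in water. Pnliprp1, a pancreatic lipase relative, had 78.3 CPM in DSS 2 and between 24.3 and 36.7 CPM in the other 6 libraries. Its transcript was identical to that of Pnliprp2 at 67.2% of aligned bases, with no shared run over 19 bases. The pancreatic lipase gene Pnlip itself had 3 counts over all libraries.

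**Figure D4:**
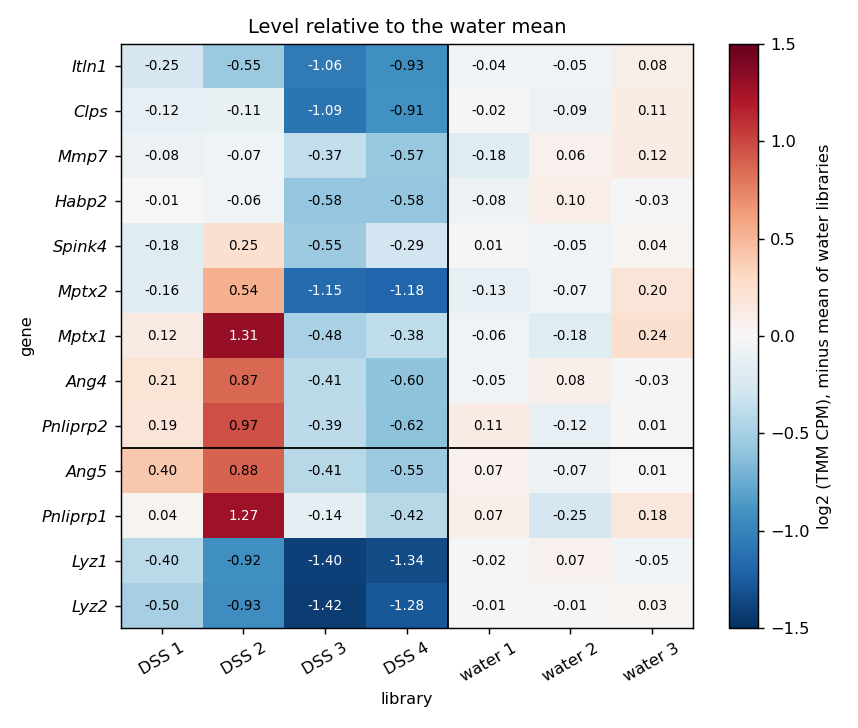
Log2 level (colour and printed value) of the 9 genes, and below the line of Ang5, Pnliprp1 and both lysozymes, in each library relative to the mean of the water libraries. The 4 DSS libraries are left of the 3 water libraries. DSS 3 and DSS 4 lie below the water libraries for all 9 genes, and DSS 2 lies above them for Ang4, Mptx1, Mptx2, Pnliprp2 and Spink4.

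The excess of DSS 2 over the other DSS libraries was uneven among the genes. DSS 2 over the mean of the other 3 was 2.88 for Mptx1, 2.44 for Mptx2, 2.30 for Pnliprp2 and 2.13 for Ang4, but 1.49 for Spink4, 1.45 for Clps, 1.23 for Habp2, 1.20 for Mmp7 and 1.11 for Itln1. The same 4 genes that led this list had the widest spread in DSS, with coefficients of variation of 48.2% to 65.3%. In water their coefficients ran from 4.67% to 15.4%. For Mmp7 the coefficient was 16.2% in DSS and 10.9% in water.

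The genes with the most similar pattern over the 7 libraries, out of 9122 compared, fell partly in the same families. They were chosen by the smallest root-mean-square difference of centred log2 CPM, a description over 7 points that share depth and scaling. Ang5 (0.099) and Pnliprp2 were nearest to Ang4, and Ang5 (0.091) and Ang4 to Pnliprp2. Some reads counted for Ang5 may come from Ang4, so its likeness to both may not be separate from that of Ang4. Nptx1, a neuronal pentraxin, was next for Ang4 and Pnliprp1 for Pnliprp2. Pnliprp1 (0.14) was nearest to Mptx1, followed by Pnliprp2 and Ang4, and Reg4 (0.22) to Mptx2, followed by Olfr418 and Cybrd1. Itln1 was nearest to Ggh (0.044), which encodes a folate-cleaving hydrolase, with Mkx and the alpha-defensin Defa24 next. Clps was nearest to Defa26 (0.078), an alpha-defensin, though reads of near-identical defensins may be split, with C4bp and Dkk3 next. Blvrb (0.081), Nfyb and Slc35f5 were nearest to Mmp7, and Hgfac (0.071), Ssr4 and Slc35b1 to Spink4. Hpd (0.063), Ttc7b and Slc9a3r2 were nearest to Habp2. The member pair farthest apart was Itln1 and Mptx1 at 0.62.

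Levels between the genes can be compared only per length. In CPM per kilobase of exon, Itln1 averaged 25763 in DSS and 40748 in water, and Ang4 14350 in DSS and 13092 in water. Spink4 averaged 7202 in DSS and 8062 in water, and Mptx2 5734 in DSS and 7117 in water. In the same unit Clps averaged 2320 in DSS and 3265 in water and Mmp7 2551 in DSS and 3063 in water. Pnliprp2 averaged 1698 in DSS and 1508 in water, Habp2 149 in DSS and 181 in water, and Mptx1 161 in DSS and 129 in water. In water, Itln1 ranked 7 and Ang4 ranked 15 among all genes per kilobase, and Mptx1, the lowest, ranked 257. The ranges of Spink4 and Mptx2 overlapped in water, as did those of Clps and Mmp7. In DSS the ranges of neighbours in this order separated only between Mptx2 and Clps and between Pnliprp2 and Habp2.

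Together the 9 genes took 6.49%, 7.48%, 4.58% and 4.64% of all counts in DSS 1 to DSS 4 and 6.50%, 6.45% and 7.12% in water 1 to water 3. Wilson 95% intervals on these shares spanned at most hundredths of a percentage point and cover counting error only. The share averaged 5.80% ± 1.43 in DSS and 6.69% ± 0.372 in water, and the difference of -0.889 percentage points carries no test. Without Itln1 the remaining 8 genes took 2.67%, 4.16%, 2.03% and 1.89% in DSS and 2.36%, 2.41% and 2.58% in water. The DSS libraries thus lay on both sides of water. Within the counts of the 9, Itln1 made up 44.3% to 59.2% in DSS and 62.6% to 63.7% in water, without overlap. Ang4 made up 14.8% to 23.6% of them in DSS and 11.8% to 13.6% in water. The shares of Pnliprp2 (3.72% to 6.46% in DSS, 3.02% to 3.58% in water) and Mptx1 (0.168% to 0.353% in DSS, 0.125% to 0.156% in water) did not overlap either. These shares add up to the whole, so a lower share of Itln1 alone makes the others larger, and Ang4 itself was below water in DSS 3 and DSS 4. In CPM the groups overlapped for Ang4, Pnliprp2 and Mptx1. How often such shares separate the groups in other sets of genes was not counted, so the separation is not shown to be particular to the 9.

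**Figure D5:**
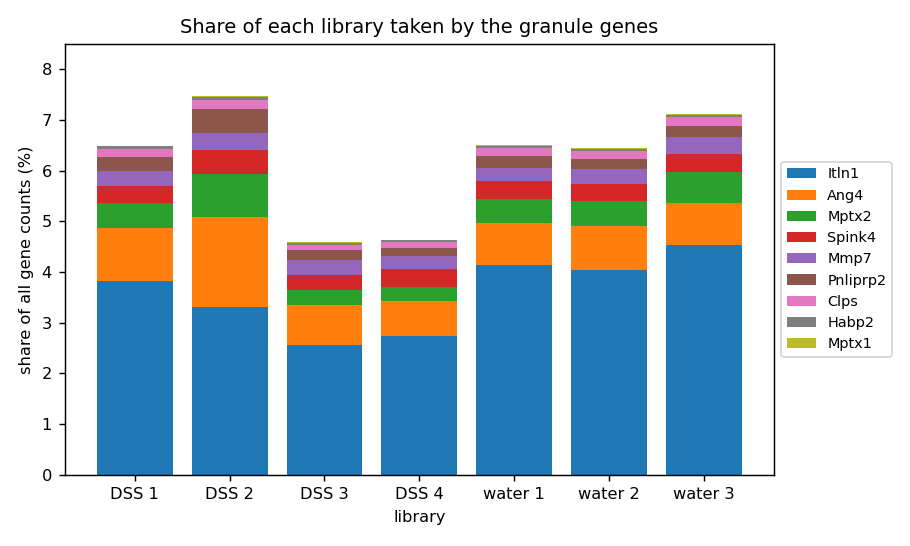
Percentage of all counts in each library taken by the 9 genes, split by gene, with DSS 1 to DSS 4 left of water 1 to water 3. The totals are 6.49%, 7.48%, 4.58% and 4.64% in DSS and 6.50%, 6.45% and 7.12% in water, and Itln1 is the largest piece in all 7 libraries.

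The lysozymes and alpha-defensins made up 16.8% to 24.0% of all counts in the DSS libraries and 26.3% to 28.2% in the water libraries. Both lysozymes had estimates below 0 (median log2 change -0.97), as did 19 of 21 alpha-defensins tested (median -0.48), and 0 of either were called. Relative to Lyz1 within the same library, 8 of the 9 genes stood higher in all 4 DSS libraries than in all 3 water libraries, as did 78.8% of the 17448 other genes tested. The mean log2 ratio to Lyz1, relative to water, was 1.16 for Mptx1, 1.05 for Pnliprp2, 1.03 for Ang4, 0.82 for Spink4 and 0.74 for Mmp7. It was 0.71 for Habp2, 0.53 for Mptx2, 0.46 for Clps and 0.32 for Itln1. Mptx2 was the exception, with 3 of 4 DSS libraries above water. Over the 17377 genes with a count in all libraries the median was 1.02, and 3 of the 9 were above it. These ratios follow from the levels given above and carry no test.

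Of 25 genes for granule formation and secretion, 24 were tested, 9 above 0 and 15 below, with 0 called (median -0.073). Snap23, a membrane fusion protein, averaged 46.5 ± 3.22 CPM in DSS and 57.5 ± 3.18 CPM in water, which is -0.31 ± 0.072 on the log2 scale (edgeR adjusted p 0.139). Rab27b, a granule transport protein, averaged 86.9 ± 14.5 CPM in DSS and 117 ± 11.0 CPM in water (-0.43 ± 0.13, adjusted p 0.189).

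Markers of other cells were counted beside these values, since Spink4, Itln1 and Clps are also known from goblet or pancreatic cells. Of 14 goblet markers, 7 were above 0, 7 below and 0 called (median 0.014), and their summed level was 5941 to 10740 CPM in DSS and 6657 to 8018 CPM in water. The highest sum was in DSS 4, where all 9 genes lay below water. Its largest part was Fcgbp, with 4175 CPM in DSS 4 and 734 to 1914 CPM in the other libraries. Tff3 was also highest in DSS 4, at 1230 CPM. Muc2, at 2680 CPM in DSS 4, lay within its water range of 2591 to 4106 CPM. The high sum therefore does not hold for every goblet marker. Clca1, a goblet product, had 193, 755, 210 and 585 CPM in DSS 1 to DSS 4 and 74.4, 105 and 114 CPM in water 1 to water 3 (log2 change 2.16 ± 0.49, edgeR adjusted p 0.138). Other goblet markers went the other way. Agr2 averaged 703 ± 177 CPM in DSS and 999 ± 75.0 CPM in water (-0.51 ± 0.18, edgeR adjusted p 0.230). Galnt12 averaged 153 ± 16.3 CPM in DSS and 177 ± 12.5 CPM in water (-0.21 ± 0.094, edgeR adjusted p 0.322). Of 14 tuft markers, 11 were above 0, 3 below and 0 called (median 0.42). Their sum ran from 2071 to 3390 CPM in DSS, highest in DSS 2, and from 2650 to 2998 CPM in water. Most of this sum was Cd24a, whose log2 change was -0.23. Cd24a had 1832, 2293, 1792 and 1513 CPM in DSS 1 to DSS 4 and 2066, 2319 and 2151 CPM in water 1 to water 3. The next by level, Dclk1 and Trpm5, had 276 and 227 CPM in DSS 2 and 285 and 219 CPM in DSS 3. In DSS 1 and DSS 4, Dclk1 had 152 and 145 CPM and Trpm5 had 129 and 114 CPM. In water, Dclk1 ran from 153 to 162 CPM and Trpm5 from 127 to 136 CPM. The range of the sum, mostly Cd24a, thus does not show the higher levels of both genes in DSS 2 and DSS 3. Of 26 pancreatic acinar markers, 6 were tested, 3 above 0 and 3 below, with 0 called. The 7 listed genes with 0 counts in every library were Prss1, Prss2, Cela2a, Try4, Try5, Try10 and Ptf1a. They are named for that outcome, and 3 counts would be 0.0924 to 0.129 CPM. The other untested acinar genes had from 1 (Cuzd1) to 36 (Ctrb1) counts over all libraries. Cela1, which was tested, averaged 2.92 CPM in DSS and 3.62 CPM in water. Immediate early genes, which respond to cell handling, had 11 of 12 estimates above 0 and 0 called (median 0.39), and their sum was highest in DSS 2, at 544 CPM. Of 16 enteroendocrine markers, 9 were above 0, 7 below and 0 called (median 0.10). Their sum differed most among the water libraries, with 64.8, 1839 and 3257 CPM in water 1 to water 3. In DSS 1 to DSS 4 it was 1151, 846, 1663 and 1569 CPM. The part of goblet, tuft, enteroendocrine and handling genes in these results was not tested.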

How the data were processed

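RNA-seq was analysed in 7 libraries, 4 DSS and 3 water. The deposited files hold raw counts of reads per gene, made by the authors with featureCounts 1.5.3 per the file headers, over exons by gene with primary alignments only, an overlap fraction of 0.8 and no strand option. Tools listed in the submitters' processing notes are STAR 2.5.3a and, for counting, featureCounts 1.5.2, with build mm10 and DESeq2. Symbols came from GENCODE release 21 for 52403 genes, with 147 unmatched; promoters came from RefSeq, where 7 of the 9 genes were listed. The 9 genes and all lists were chosen with earlier results of these data known.

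edgeR 4.0.16 in R 4.3.3 tested 17449 genes left by filterByExpr, with TMM scaling, no covariate and a threshold of 0.05 on adjusted p. The ratio of 2 genes was tested by exact permutation. DESeq2 1.42.0, limma 3.58.1, other scalings and filters, age, lane, and leaving out each library were alternatives. Steps were tested on simulated data. All 9 genes are named, with the 3 nearest patterns to each. Of the lists, genes are named from the 3 with the smallest p; others named were at 0, marked a cell type or were close relatives.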

Additional observations from a re-analysis of the deposited data

How the results depend on the processing

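No paired analysis was possible because replicates were numbered in accession order and pair nothing; the only number that titles share across groups ties 1 water library to 2 DSS libraries. Of 17 alternatives for each gene, the estimate changed sign 9 times: for Ang4 to -0.031 with limma-voom, -0.61 with lane 6 libraries only and -0.23 without DSS 2. For Pnliprp2 it was -0.016, -0.63 and -0.23 in the same order, and for Mptx1 -0.40 in lane 6 and -0.23 without DSS 2. For Spink4 it was 0.063 with library totals, a scaling that moved the median of all genes to 0.23, relative to which Spink4 stood at -0.17. The only DSS library in lane 6 was DSS 4, which lay below all water libraries for all 9 genes, so the signs there follow from that. DESeq2 called 1 of the 9 lower, Itln1, which the other alternatives did not, and none higher in any. Over all genes, edgeR called 0 in each direction. DESeq2 called 346 higher and 296 lower, library totals 2107 and 28, no filter on low counts 240 and 201, and lane 6 libraries 3 and 6. Leaving out single libraries gave 0 to 168 higher and 0 to 135 lower, with 168 and 135 without DSS 1 and 9 higher without DSS 4. The cause was not tested. Leaving out single libraries moved the log2 change of Itln1 between -0.83 and -0.55, of Clps between -0.65 and -0.34, of Habp2 between -0.39 and -0.20, of Mmp7 between -0.35 and -0.17, of Spink4 between -0.33 and -0.054, of Mptx2 between -0.75 and -0.11, of Ang4 between -0.23 and 0.31, of Mptx1 between -0.23 and 0.52, of Pnliprp2 between -0.23 and 0.36, and the summed share difference between -1.45 and -0.48 percentage points; with lysozymes and defensins outside the total it was -1.95. Neither the members called nor the direction of the Mptx1 to Mptx2 ratio changed when single libraries were left out. Counting noise was small at these levels, and the 7 libraries limit the precision.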
